A study of Mus musculus with 12 samples.

Results

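RNA-seq libraries of cells sorted on the adhesion molecule Alcam were compared with libraries of stromal cells sorted in other ways. The comparison used all 12 libraries of the series, 6 on each side. The Alcam-sorted arm held 3 libraries of Itga8+Alcam+Sca-1- cells (Itga8+ MSCs) and 3 of Itga8-Alcam+Sca-1- bone-lining cells (BLCs, which the labels call osteoblasts). The other arm held 3 libraries of Alcam-Sca-1+ cells (Sca-1+ MSCs) and 3 of CD51+CD140a+ cells (CD51+CD140a+ MSCs, here marrow MSCs), where CD140a is the protein of Pdgfra and CD51 that of Itgav. All cells came from wild-type C57BL/6 male mice aged 8 to 10 weeks and lacked CD45, Ter119 and CD31, and each library was made from 2000 cells. The labels do not say whether replicates came from separate animals, so the p-values measure the spread between these libraries, which may be technical. The first 3 populations were freed from crushed bone by collagenase and the marrow MSCs were freed from flushed marrow by another enzyme mix, and the latter were not sorted on Alcam. The arm, the site and the digestion therefore cannot be told apart for that population. In sorted pools of this kind, fewer cells of a type and less RNA per cell cannot be told apart either.

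Alcam is a cell surface protein of the immunoglobulin superfamily that binds itself and CD6, and it marks part of the stroma on the inner surface of bone. Bone holds several stromal compartments: osteoblasts and bone-lining cells on the surface, chondrocytes in growth plate and joint cartilage, and reticular cells around the sinusoids of the marrow. The reticular cells carry the leptin receptor and secrete Cxcl12 and Kit ligand, on which blood stem cells depend. Cartilage matrix is built from collagens II, IX and XI, aggrecan and matrilins under the control of Sox9, Sox5 and Sox6.

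A gene was counted as a member when all 6 Alcam-sorted libraries lay above, or all 6 below, all 6 other libraries, in CPM (the reads of a gene relative to all reads counted in the library, after TMM scaling). Of 49585 gene identifiers in the files, 18648 reached 0.5 CPM or more in 1 or more libraries and were fitted. All 6 Alcam-sorted libraries lay above for 1599 genes (8.57% of the genes tested) and below for 1216 genes (6.52%), 2815 genes in all (15.1%). The rule is a description, and the genes it found received no test of their own for it. Those just inside it barely separate. Thumpd1 had 61.9 CPM in the lowest Alcam-sorted library and 61.9 CPM in the highest of the others, and Cars missed the rule with 65.8 CPM in both. On the lower side Cybc1 entered with 51.9 CPM in both libraries that face each other, and Supt20 missed it with 58.8 CPM in the highest Alcam-sorted library and 58.7 CPM in the lowest of the others. The arms lay more than 2-fold apart on the log2(CPM + 0.5) scale for 292 of the 1599 genes and for 173 of the 1216.

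The libraries differed in more than their population. Total counts were 17580677 to 27574679 in the Alcam-sorted arm and 17681562 to 31332475 in the other, so that 3 counts, the level treated here as a floor, were 0.0820 to 0.180 CPM. Such floors cover counting error only, since amplified copies count as separate reads. Replicates resembled each other less in the Alcam-sorted arm: Pearson's r of log2 CPM across genes spanned 0.862 to 0.950 for Itga8+ MSCs and 0.921 to 0.949 for BLCs, against 0.964 to 0.974 for Sca-1+ MSCs and 0.960 to 0.974 for marrow MSCs. Long genes were low relative to short ones in 4 of the 6 Alcam-sorted libraries. Among 11013 genes with a mean of at least 5 CPM, the median deviation of the longest genes (exon length over 5938 bases) minus that of the shortest genes (under 3325 bases) was -0.27, -1.70 and 0.35 on the log2 scale in Itga8+ replicates 1 to 3 and -0.52, 0.34 and -1.24 in the BLC replicates. It was 0.34 to 0.65 in the 6 others. The libraries lowest in long genes, Itga8+ replicate 2 and BLC replicate 3, also had the highest share of mitochondrial counts, 0.546% and 0.359%, against at most 0.0996% elsewhere. The median exon length was 2825 bases in genes above, 5666 bases in genes below and 3712.5 bases in all genes tested.

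Exon length moved with membership, and a count of members reads differently for short and for long genes. Among the 11013 genes with a mean of at least 5 CPM, 17.8% of those under 2000 bases lay above and 1.95% below, and of those of 8000 bases or more, 2.86% lay above and 17.4% below. After the trend with length was taken out of each library, these shares were 9.35% and 8.48% for the shortest genes and 7.26% and 9.78% for the longest. Of the 1599 genes above, 1133 (70.9%) still lay above, and of the 1216 below, 940 (77.3%) still lay below. The part of exon length in single genes was not tested. Named genes described here that left the rule or lost a call with the trend taken out are pointed out beside their values. Leaving out those 4 libraries keeps only Itga8+ replicate 3 and BLC replicate 2 in the Alcam-sorted arm. Neither population has a replicate there, so effect sizes of that fit are given without FDR values.

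**Figure D1:**
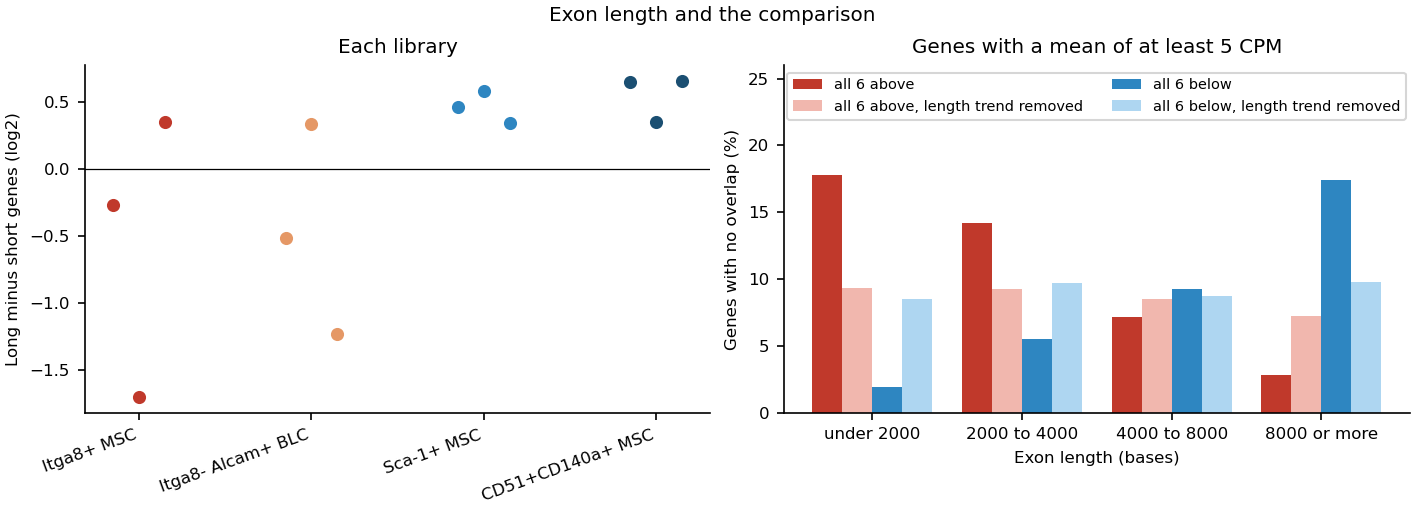
The left panel plots, for each of the 12 libraries, the median deviation of long genes minus that of short genes on the log2 scale, and 4 Alcam-sorted libraries lie below 0 while the 8 other libraries lie above it. The right panel plots the share of the 11013 genes with a mean of at least 5 CPM, in 4 classes of exon length (bases), for which all 6 Alcam-sorted libraries lie above or below the others, as measured and after the length trend was removed: 17.8% of the shortest genes lie above as measured and 9.35% after removal.

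The fit of all 12 libraries (edgeR's quasi-likelihood test, 4 populations, the mean of both Alcam-sorted populations minus the mean of the others) called 4035 genes higher (21.6% of those tested) and 2656 lower (14.2%) at an FDR (Benjamini-Hochberg adjusted p) under 0.1 with more than a 2-fold change. Of the 1599 genes above, 1374 were called higher, and of the 1216 below, 1033 were called lower. The pooled calls hide differences between the populations pooled. Of the 4035 called higher, 1044 were called in each of the 4 comparisons of 1 Alcam-sorted with 1 other population. Another 988 were called against marrow MSCs by both Alcam-sorted populations and against Sca-1+ MSCs by neither, and 215 the other way round. Of the 2656 called lower, these numbers were 557, 620 and 208. Among the genes that met the rule, 935 of the 1599 above and 540 of the 1216 below were called in all 4 comparisons. The calls use the libraries that the rule used, so a high share called among these genes follows in large part from the rule.

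The single comparisons, which share libraries, had different backgrounds. Relative to Sca-1+ MSCs, Itga8+ MSCs had 2397 genes called higher (12.9% of those tested) and 1658 lower (8.89%), and BLCs had 2706 (14.5%) and 2224 (11.9%). Relative to marrow MSCs the numbers were 3959 (21.2%) and 2672 (14.3%) for Itga8+ MSCs and 3808 (20.4%) and 2770 (14.9%) for BLCs. Within the Alcam-sorted arm, 310 genes (1.66%) were called higher and 402 (2.16%) lower in Itga8+ MSCs than in BLCs, 3.82% either way. Within the other arm, 2093 (11.2%) were called higher and 1734 (9.3%) lower in Sca-1+ MSCs than in marrow MSCs, 20.5% either way. Of the sum of squares of log2(CPM + 0.5) over genes, 39.1% lay between the arms, 8.50% between Itga8+ MSCs and BLCs, 26.8% between Sca-1+ MSCs and marrow MSCs and 25.7% between libraries of a population.

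Alcam and the cartilage genes Col2a1 and Cnmd were high in the Alcam-sorted arm and Pdgfra was low, with no overlap of libraries for any of these markers. Alcam RNA (chr16:52248996-52454074 on mm10) was scarce even where the protein had been sorted for. It measured 1.29, 5.04 and 2.72 CPM in Itga8+ replicates 1 to 3 and 3.83, 5.10 and 5.82 CPM in BLCs. In Sca-1+ MSCs it was 0.221, 0.102 and 0.0937 CPM and in marrow MSCs 0, 0.0287 and 0.0644 CPM, at most 4 counts in a library. The log2 fold change between the arms was 5.77 ± 0.57 (SE, FDR = 1.9e-05 by edgeR). The Alcam-sorted populations differed from each other by -0.71 (FDR = 0.76).

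Col2a1, the chain of collagen II, ranged from 5269 to 105479 CPM in the Alcam-sorted libraries (median 47252 CPM) and from 395 to 1248 CPM in the others (median 1031 CPM). Its lowest Alcam-sorted values, 7596 CPM in Itga8+ replicate 2 and 5269 CPM in BLC replicate 3, fell in the libraries lowest in long genes. The log2 fold change was 5.69 ± 0.74 (FDR = 0.00013, edgeR). Cnmd, which encodes chondromodulin, an anti-angiogenic glycoprotein of cartilage, measured 3268 to 12327 CPM (median 5371 CPM) against 30.7 to 131 CPM (median 64.1 CPM), a log2 fold change of 6.46 ± 0.41 (FDR = 1e-06, edgeR). Both held in each of the 4 comparisons of populations, with log2 fold changes of 4.89 to 6.48 for Col2a1 and 5.68 to 7.24 for Cnmd.

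Pdgfra, the receptor for PDGF-A that defined the CD51+CD140a+ sort, measured 14.4, 5.35 and 26.5 CPM in Itga8+ MSCs and 47.6, 148 and 55.6 CPM in BLCs. In Sca-1+ MSCs, which had not been sorted on it, it measured 734 to 1019 CPM, and in marrow MSCs 682 to 867 CPM. The log2 fold change was -4.51 ± 0.43 (FDR = 1.4e-05, edgeR). Itga8+ MSCs lay below BLCs by 2.44 ± 0.55 on the log2 scale (FDR = 0.039), while Sca-1+ and marrow MSCs differed by 0.19 (FDR = 0.89).

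The other sorting genes followed other patterns: Itga8 was high in 1 population of each arm, Ly6a in Sca-1+ MSCs, and Itgav separated the arms narrowly. Itga8 had means of 103 ± 85.7 CPM (SD, n = 3) in Itga8+ MSCs, 1.74 ± 2.11 in BLCs, 2.28 ± 0.529 in Sca-1+ MSCs and 64.4 ± 16.2 in marrow MSCs. Its difference between Itga8+ and marrow MSCs was 0.67 ± 0.73 on the log2 scale (FDR = 0.50), and its pooled difference 0.15 (FDR = 0.85). Without the 4 libraries low in long genes the pooled difference was 1.25, but of the Itga8+ libraries that fit keeps only replicate 3, the highest at 199 CPM. Ly6a, the gene of Sca-1, had 611 to 659 CPM in Sca-1+ MSCs, 8.61 to 35.7 CPM in the Alcam-sorted libraries and 0.602 to 2.42 CPM in marrow MSCs. Its pooled difference was -0.36 (FDR = 0.45), or -1.25 without those 4 libraries. Near-identical sequence in other genes leaves 81.0% of the 50-base words of Ly6a unique, so its level is less certain. Itgav, the gene of CD51, lay below in all 6 Alcam-sorted libraries only narrowly, at 118 CPM in the highest of them and 121 CPM in the lowest of the others. Its log2 fold change was -1.56 ± 0.57 (FDR = 0.048), and only -0.39 without the 4 libraries low in long genes.

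**Figure D2:**
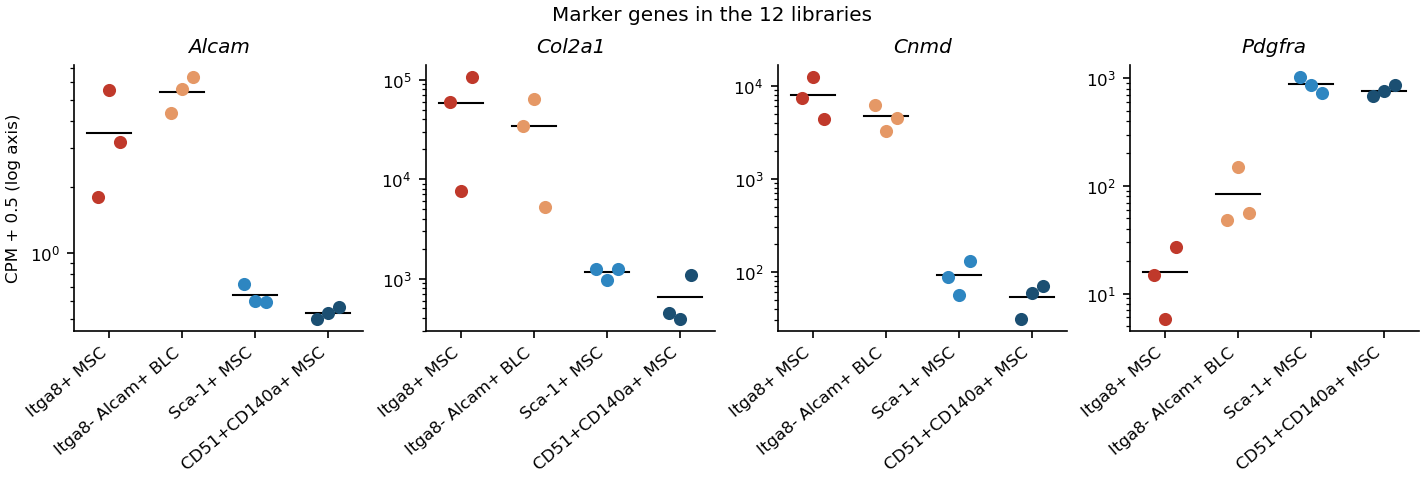
Levels of Alcam, Col2a1, Cnmd and Pdgfra (CPM + 0.5, log axis) are plotted for the 3 libraries of each population, with a line at the mean. The 6 Alcam-sorted libraries lie above the 6 others for the first 3 genes and below them for Pdgfra, where their highest value is 148 CPM against 682 CPM in the lowest of the others.

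Of 25 cartilage genes tested, 23 were called higher in the Alcam-sorted arm (92.0%, against 21.6% of all genes) and none lower, and 15 had all 6 libraries above (60.0%, against 8.57%). The median log2 fold change was 3.90, beside 0.16 over all genes tested. The collagens of cartilage fibrils stood out: Col9a1, Col9a2, Col9a3, Col11a1 and Col11a2 all lay above with Col2a1. Col9a3, a chain of the collagen IX that coats collagen II fibrils, measured 1795 to 6538 CPM (median 4793 CPM) against 22.5 to 103 CPM (median 40.7 CPM). Aggrecan (Acan), the main proteoglycan of cartilage, had means of 792 and 827 CPM in Itga8+ MSCs and BLCs, 138 CPM in Sca-1+ MSCs and 26.8 CPM in marrow MSCs, and its link protein Hapln1 had 1016, 1436, 40.8 and 18.0 CPM. Of the transcription factors, Sox5 met the rule and Sox9 and Sox6 did not. Sox6 averaged 35.8 CPM in Itga8+ MSCs, 20.9 CPM in BLCs, 30.9 CPM in Sca-1+ MSCs and 5.46 CPM in marrow MSCs, and was not called against Sca-1+ MSCs by either Alcam-sorted population (log2 0.21 and -0.56, FDR = 0.66 and 0.22, edgeR). Sox9, named here after its values were seen, had 150 CPM in its lowest Alcam-sorted library and 154 CPM in the highest of the others. Its median was 573 CPM against 83.9 CPM and its log2 fold change 2.67. It lay above once the length trend was removed.

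The cartilage list did not separate the arms evenly. Against marrow MSCs, Itga8+ MSCs had 22 and BLCs 24 of the 25 genes called higher, with medians of 5.82 and 5.96 on the log2 scale. Against Sca-1+ MSCs each had 17 called higher and 1 lower, with medians of 3.02 and 2.84. Members not called higher over Sca-1+ MSCs by either population were Col10a1, Ihh, Sox6, Chad, Comp, Cytl1, Prg4 and Clec3a. Prg4 was the 1 called lower by both (log2 -2.64 and -1.84, FDR = 0.00056 and 0.0032, edgeR). Comp, a matrix protein of cartilage and tendon, averaged 7568 CPM in Itga8+ MSCs, 4620 CPM in BLCs, 7985 CPM in Sca-1+ MSCs and 74.0 CPM in marrow MSCs. Prg4, the joint lubricant lubricin, averaged 173, 301, 1081 and 21.2 CPM in the same order. The summed level of the list was 44318 to 157236 CPM in Itga8+ MSCs, 31141 to 111350 CPM in BLCs, 16699 to 19881 CPM in Sca-1+ MSCs and 803 to 2069 CPM in marrow MSCs.

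The genes with the widest gap above the others were led by another cartilage gene. Matn3 (chr12:8947929-8972028), encoding the matrix protein matrilin-3, measured 1960 to 5558 CPM in the Alcam-sorted libraries (median 3855 CPM) and 1.07 to 43.9 CPM in the others (median 26.9 CPM), so that the nearest libraries of the arms lay 44.6-fold apart. Cnmd and Ucma, a secreted protein of the upper growth plate, were also among the 15 genes with the widest gap that had at least 5 CPM in their lowest Alcam-sorted library. Ucma measured 201 to 1693 CPM against 0.628 to 10.1 CPM. Crtac1, cartilage acidic protein 1, measured 29.1 to 95.3 CPM and was at 0 in 4 of the 6 other libraries, with at most 0.226 CPM.

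Bmp7, Epcam, Krt16 and Mpzl2 were also in this group. Bmp7, a bone morphogenetic protein, measured 96.0 to 264 CPM in the Alcam-sorted libraries (median 212 CPM) and 0 to 3.10 CPM in the others (median 1.41 CPM). Its population means were 200 ± 90.9 CPM (SD, n = 3) in Itga8+ MSCs and 198 ± 60.1 CPM in BLCs. Epcam (chr17:87635979-87651129), an adhesion molecule best known from epithelia, had 8.48 to 28.2 CPM in the Alcam-sorted libraries (median 13.2 CPM) and no count in any of the 6 others. Against a floor of 3 counts per library it was at least 132-fold higher. Krt16, a keratin, had 22.5 to 78.1 CPM against 0 to 0.203 CPM, and 62.4% of its 50-base words occur nowhere else among genes. Mpzl2, an adhesion molecule of epithelia, had 40.4 to 76.2 CPM against 0 to 0.775 CPM. Its neighbour Gm48840 overlaps it on the opposite strand and shares 57.9% of its exon bases with other genes, and since the use of strand in counting is not given, the reads of the pair cannot be told apart.

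Insc, an adaptor protein that orients dividing cells, measured 50.3 to 259 CPM against 0 to 1.49 CPM. The constitutively active receptor Gpr3 measured 42.4 to 113 CPM against 0.443 to 1.32 CPM, and the glutamine transporter Slc38a3 55.4 to 127 CPM against 0.328 to 2.39 CPM. Cmtm5 (25.2 to 65.2 CPM against 0 to 0.562 CPM) and R3hdml (26.6 to 221 CPM against 0 to 0.797 CPM) completed the group with Bpifb1. Bpifb1, a secreted protein of mucosal surfaces, averaged 536 ± 224 CPM in Itga8+ MSCs and 38.7 ± 7.86 CPM in BLCs, and was the only one of these 15 genes called between them (log2 3.79 ± 0.60, FDR = 0.005).

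**Figure D3:**
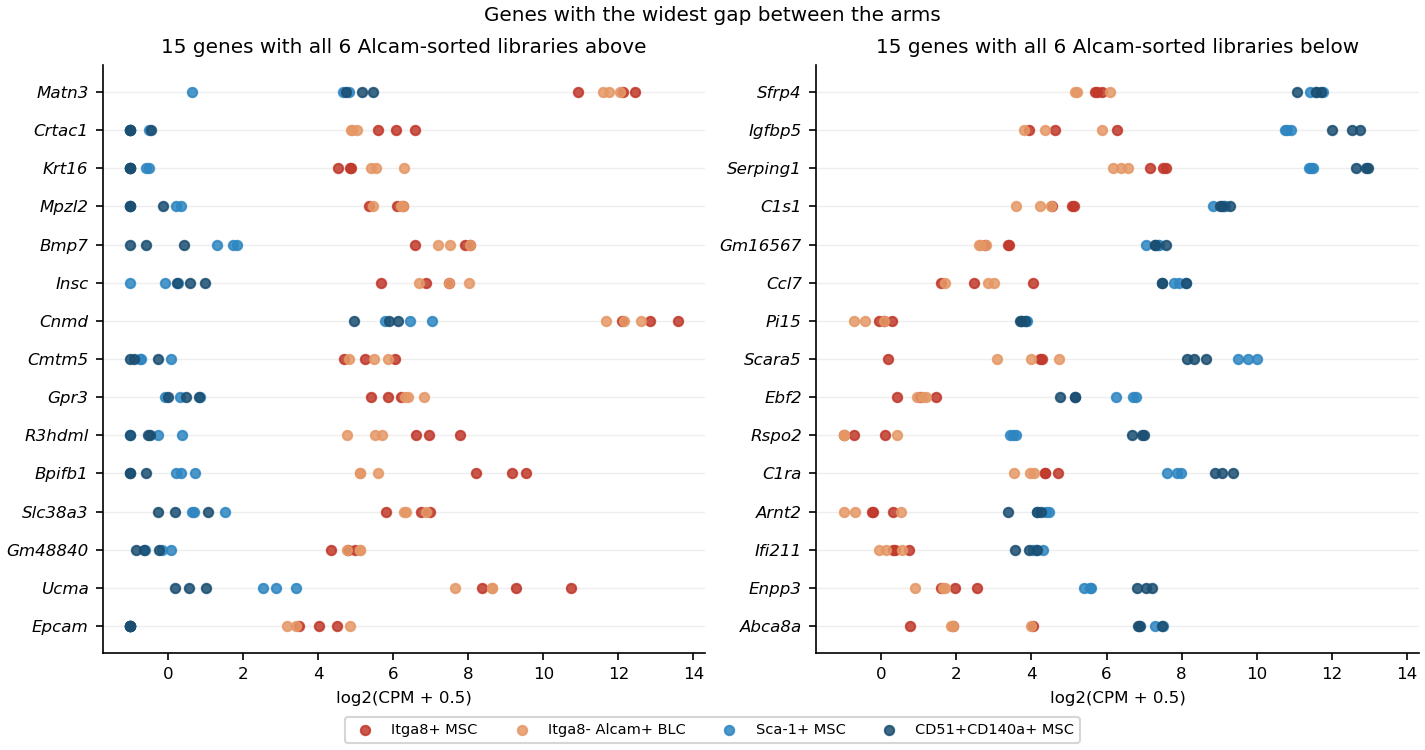
Each point is 1 library on the log2(CPM + 0.5) scale, for the 15 genes with the widest gap above the others (left) and the 15 below (right), coloured by population. For Matn3 the lowest Alcam-sorted library has 1960 CPM and the highest other library 43.9 CPM, and for Sfrp4 the highest Alcam-sorted library has 68.1 CPM and the lowest other library 2139 CPM.

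Sfrp4, a secreted inhibitor of Wnt signalling, had the widest gap below. It measured 35.3 to 68.1 CPM in the Alcam-sorted libraries (median 52.1 CPM) and 2139 to 3472 CPM in the others (median 3069 CPM). The Sca-1+ and marrow MSCs did not differ in it beyond their spread (log2 0.11, FDR = 0.89). Igfbp5 (chr1:72857932-72874884), which binds insulin-like growth factors in bone matrix, measured 13.4 to 77.5 CPM against 1730 to 6858 CPM. Rspo2, a secreted enhancer of Wnt signalling, was at 0 to 0.834 CPM in the Alcam-sorted libraries, at 10.3 to 11.5 CPM in Sca-1+ MSCs and at 102 to 127 CPM in marrow MSCs. Ebf2, a transcription factor of stromal and adipose precursors, measured 0.831 to 2.25 CPM against 26.5 to 110 CPM.

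The 15 genes with the widest gap below held 3 of the complement system. Serping1, the inhibitor of the first complement component, had means of 171 ± 26 CPM in Itga8+ MSCs and 82.7 ± 11.5 CPM in BLCs (SD, n = 3), against 2803 ± 102 CPM in Sca-1+ MSCs and 7369 ± 858 CPM in marrow MSCs. C1s1 (11.6 to 34.8 CPM against 457 to 630 CPM) and C1ra (11 to 25.7 CPM against 194 to 661 CPM) encode its proteases. Only 64.9% and 49.2% of their 50-base words are found in no other gene, and Gm16567, antisense to C1s1 and wholly overlapped, followed it at 5.58 to 10.0 CPM against 133 to 190 CPM. Ccl7, a chemokine that draws monocytes, measured 2.52 to 16.0 CPM against 179 to 278 CPM. Scara5, a ferritin receptor, measured 0.623 to 26.3 CPM against 281 to 1035 CPM, with its lowest value in Itga8+ replicate 2. Pi15, Arnt2, Ifi211, Enpp3 and Abca8a completed the 15, each at 15.8 CPM or less in every Alcam-sorted library and at 9.81 CPM or more in every other.

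Promoters are shown for a gene of the widest gap on each side and for Epyc, the 1 cartilage gene above whose window held letters of a SOX motif. They are the 250 bases before the transcription start in RefSeq on GRCm38.p6, 5′ to 3′ on the gene's strand. Epyc, a small proteoglycan of the growth plate, averaged 114 and 146 CPM in the Alcam-sorted populations against 36.4 and 3.81 CPM in the others, and has another start in the table. Capitals mark AACAAT (SOX) and ATCAAAG (TCF/LEF) on either strand.
Matn3, chr12:8947679-8947928, plus strand: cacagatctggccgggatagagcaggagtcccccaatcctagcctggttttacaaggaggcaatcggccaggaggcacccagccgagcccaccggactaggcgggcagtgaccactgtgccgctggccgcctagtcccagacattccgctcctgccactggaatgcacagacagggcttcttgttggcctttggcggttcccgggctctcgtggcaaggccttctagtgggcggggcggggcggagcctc
Epyc, chr10:97643818-97644067, plus strand: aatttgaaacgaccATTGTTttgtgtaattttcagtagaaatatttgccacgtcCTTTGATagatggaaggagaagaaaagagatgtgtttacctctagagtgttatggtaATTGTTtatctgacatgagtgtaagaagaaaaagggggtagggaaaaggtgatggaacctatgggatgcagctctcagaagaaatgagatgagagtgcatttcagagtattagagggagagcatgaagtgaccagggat
Igfbp5, chr1:72874866-72875115, minus strand: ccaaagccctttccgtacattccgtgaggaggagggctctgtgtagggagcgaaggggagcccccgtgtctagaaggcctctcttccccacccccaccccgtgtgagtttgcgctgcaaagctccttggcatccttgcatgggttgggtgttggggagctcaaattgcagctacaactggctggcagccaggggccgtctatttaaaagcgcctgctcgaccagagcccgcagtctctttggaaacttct

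Over all members the shares of promoters with these letters lay near the share over all genes tested. The SOX letters stood in 4.37% of the promoters of genes above, 5.57% of those below and 5.67% of all promoters of genes tested, and the TCF/LEF letters in 2.85%, 2.25% and 2.37%. The EBF motif stood in 0.763%, 1.17% and 0.949%. Of the symbols of genes above, 1142 of 1597 had a promoter in the table, and of those below 845 of 1212. Overlaps between motifs were counted for each. These shares describe 250 bases only.

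Genes of the leptin receptor-expressing marrow stroma were the counterpart of the cartilage genes. Of 20 tested, 19 were called lower in the Alcam-sorted arm (95.0%, against 14.2% of all genes) and none higher, with a median log2 fold change of -3.47. Only 8 of them had all 6 libraries below (40%, against 6.52%). The difference came mostly from 1 population. Against marrow MSCs the medians were -5.72 in Itga8+ MSCs and -5.98 in BLCs, with 20 and 19 genes called lower. Against Sca-1+ MSCs they were -0.55 and -1.16, with 8 and 10 called lower and 3 and 4 called higher. Without the marrow MSC libraries the pooled median was -0.85.

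Lepr itself measured 8.27 to 61.8 CPM in the Alcam-sorted libraries, 182 to 214 CPM in Sca-1+ MSCs and 5727 to 6739 CPM in marrow MSCs. Cxcl12, the chemokine that retains blood stem cells, did not meet the rule: its highest Alcam-sorted value was 444 CPM and its lowest other value 435 CPM, both near the 457 ± 38.6 CPM (SD, n = 3) of Sca-1+ MSCs, while marrow MSCs averaged 43490 ± 7924 CPM. It is named after its values were seen. Adipoq and Hp, an adipokine and a plasma haemoglobin scavenger, went the other way against Sca-1+ MSCs: Adipoq averaged 20.5 and 28.7 CPM in the Alcam-sorted populations, 1.88 CPM in Sca-1+ MSCs and 2247 CPM in marrow MSCs. Ebf1, a transcription factor of these cells, met the rule at 13.4 to 95.3 CPM against 216 to 512 CPM.

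**Figure D4:**
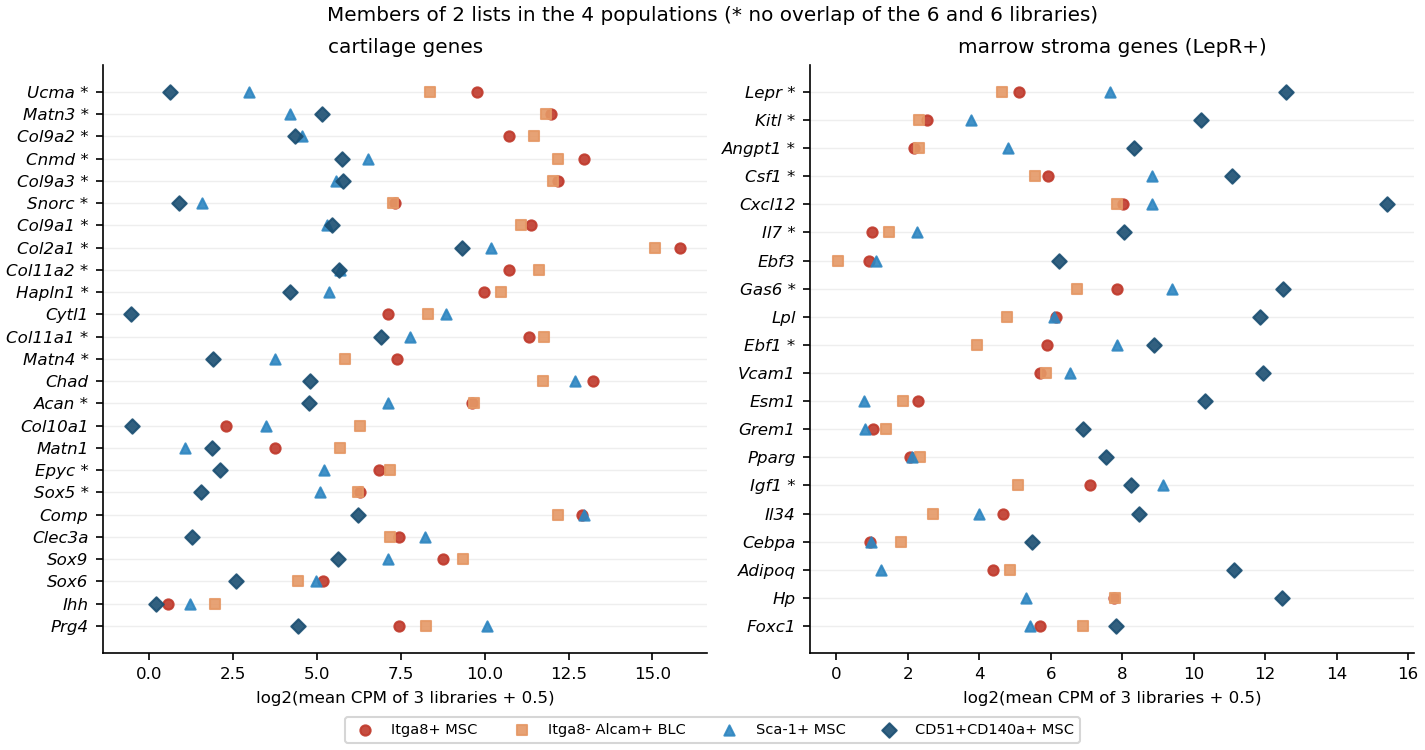
Mean levels of 3 libraries per population, log2(CPM + 0.5), are plotted for each of 25 cartilage genes (left) and 20 marrow stroma genes (right), and a star marks genes with no overlap of the 6 and 6 libraries, 15 on the left and 8 on the right. On the right the diamonds of the marrow MSCs lie above the other populations for all genes but Igf1, whose highest mean, 569 CPM, is in Sca-1+ MSCs.

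Of 19 blood stem cell niche factors, 10 were called lower (52.6%, against 14.2% of all genes) and 3 higher (15.8%, against 21.6%), and 8 lay below in all 6 libraries (42.1%, against 6.52%) and 1 above. The median log2 fold change was -2.17, and the list shares 5 genes with the marrow stroma list. Csf1, the growth factor of macrophages, measured 16.0 to 87.0 CPM against 384 to 2830 CPM. Angpt1, a ligand of the receptor Tie2, measured 1.61 to 8.15 CPM against 26.2 to 334 CPM. The Notch ligand Jag1 measured 0.899 to 17.6 CPM against 61.6 to 96.1 CPM, and Bmp4 5.89 to 34.6 CPM against 75.5 to 508 CPM. The exception was Il11, an interleukin of the IL-6 family, at 5.19 to 29.8 CPM against 0 to 3.51 CPM, which left the rule after the length trend was removed.

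Wnt inhibitors split in both directions. Of 11 tested, 6 were called higher (54.5%, against 21.6% of all genes) and 4 lower (36.4%, against 14.2%), with 5 above (45.5%, against 8.57%) and 3 below (27.3%, against 6.52%) by the rule. Sfrp5 measured 55.5 to 253 CPM in the Alcam-sorted libraries (median 141 CPM) and 0 to 3.28 CPM in the others (median 0.790 CPM), while its relatives Sfrp4 and Sfrp1 went the other way, Sfrp1 at 7.27 to 29.8 CPM against 38.6 to 190 CPM. Notum, an enzyme that inactivates Wnt proteins, measured 75.1 to 190 CPM against 0 to 9.72 CPM, with 38.1% of its exon bases overlapped by another gene. Wif1, which binds Wnt proteins, measured 479 to 1440 CPM against 159 to 381 CPM. Sostdc1, an antagonist of BMP and Wnt signals, had 0.809 to 9.23 CPM and no count in the 6 others, at least 32.4-fold higher than the floor. Dkk3 lay below at 48.0 to 82.6 CPM against 97.9 to 516 CPM. The nuclear partners of the pathway, Lef1 and Tcf7, both lay above. Lef1 measured 56.4 to 122 CPM against 0.548 to 4.08 CPM, and Tcf7, named after its values were seen, 10.4 to 73.9 CPM against 1.16 to 9.32 CPM, though it left the rule after the length trend was removed.

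Of 13 BMP antagonists and follistatins, 6 were called lower (46.2%, against 14.2% of all genes) and 4 higher (30.8%, against 21.6%). Their median log2 fold change was -0.55, and 0.50 without Sca-1+ MSCs. Follistatin (Fst), which binds activin, measured 3.61 to 10.6 CPM against 37.5 to 368 CPM, and Bmper 2.70 to 14.0 CPM against 66.8 to 183 CPM. Fstl4 lay above, at 1.51 to 37.8 CPM against 0 to 0.774 CPM. Fstl3 met the rule by 1.01-fold, shares 47.3% of its exon bases with a neighbour and left the rule after the length trend was removed. Of 13 IGF genes, 5 were called lower (38.5%) and 2 higher (15.4%), and Igf1, Igfbp4 and Igfbp5 lay below. Igfbp4 measured 94.4 to 228 CPM against 381 to 5558 CPM and Igf1 21.4 to 178 CPM against 287 to 686 CPM, and Igf1 also left the rule after the length trend was removed.

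Of 28 fibrillar and associated collagens, 11 were called higher (39.3%, against 21.6% of all genes) and 7 lower (25%, against 14.2%), and 6 lay above (21.4%, against 8.57%) and 1 below (3.57%, against 6.52%). Col2a1 and Col9a3, which also lay above, are counted with the cartilage genes and not here. Col22a1, Col13a1 and Col26a1 were among the 6 above. Col22a1, which sits at tissue junctions, measured 148 to 1719 CPM against 5.68 to 24 CPM, and the transmembrane Col13a1 10.7 to 163 CPM against 0.332 to 1.45 CPM. Col26a1 measured 7.79 to 60.5 CPM against 0 to 4.03 CPM. Col6a5 lay below, at 0.104 to 2.04 CPM against 9.13 to 49.2 CPM. Col1a1, the main collagen of bone, overlapped: it is named after its values were seen and averaged 4461 CPM in Itga8+ MSCs (213 to 7217 CPM), 66586 CPM in BLCs, 17261 CPM in Sca-1+ MSCs and 1006 CPM in marrow MSCs.

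Of 23 basement membrane genes, 9 were called lower (39.1%, against 14.2% of all genes) and 5 higher (21.7%, against 21.6%), and 4 lay below (17.4%, against 6.52%). These 4 encode laminin chains and the linker nidogen: Lamb1 (1.82 to 35.6 CPM against 178 to 806 CPM), Lama4 (5.82 to 58.9 CPM against 158 to 381 CPM), Lamc1 (7.67 to 298 CPM against 351 to 605 CPM) and Nid1 (11.4 to 549 CPM against 584 to 1031 CPM). The median of the list was -0.98 and turned to 0.37 without the 4 libraries low in long genes. Integrin subunits, the receptors for this matrix, gave 8 called higher (30.8%) and 6 lower (23.1%) of 26, with 1 above (3.85%), 4 below (15.4%) and a median of -0.22. Itga9 measured 0.249 to 24.2 CPM against 72.2 to 154 CPM, Itga11 9.09 to 162 CPM against 168 to 414 CPM, and Itgb1, the common partner, 335 to 982 CPM against 1008 to 1217 CPM, with a log2 change of -0.86 that is under the 2-fold limit. In Itga8+ replicate 3 and BLC replicate 2, which are not among those 4 libraries, Itga11 measured 162 and 130 CPM. Itgb4 alone lay above, at 2.44 to 15.3 CPM against 0.315 to 2.16 CPM.

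Among adhesion genes of the immunoglobulin type, to which Alcam belongs, 10 of 28 were called higher (35.7%, against 21.6% of all genes) and 5 lower (17.9%, against 14.2%), and Alcam was the 1 member that met the rule (3.57%, against 8.57% above). Of 15 cadherins 2 were called higher (13.3%) and 3 lower, and none met the rule. In the pooled fit the PDGF receptors Pdgfra and Pdgfrb were called lower and 3 of 4 ligands higher, but single populations differed. Against Sca-1+ MSCs, Itga8+ MSCs had less of the ligand Pdgfc (log2 -1.45, FDR = 0.016 by edgeR), and Pdgfrb was not called there (log2 -1.41, FDR = 0.35). Pdgfa measured 36.0 to 120 CPM against 19.0 to 24.7 CPM, with 26.1% of its exon bases overlapped by another gene. Pdgfrl, a secreted protein related to the receptors, measured 167 to 717 CPM against 1.89 to 109 CPM. Of 17 surface genes used to define MSCs, 7 were called higher (41.2%) and 6 lower (35.3%).

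Limb and mesenchyme transcription factors gave 12 called higher and 12 lower of 47 (25.5% each, against 21.6% and 14.2% of all genes), and the shares above (10.6%) and below (6.38%) lay near those of all genes. Beside Lef1 and Tcf7, Msx2, Foxf1 and Pax1 lay above, with Msx2 at 3.76 to 25.7 CPM against 0.172 to 1.12 CPM. Prrx1, a factor of the early limb mesenchyme, lay below at 7.52 to 20.9 CPM against 47.7 to 75.6 CPM, as did Foxp1. Foxp1 left the rule and lost its call when the length trend was removed (log2 -0.64). Contractile genes gave 4 called higher (30.8%) and 2 lower (15.4%) of 13, but the comparisons ran in opposite directions, with medians of 2.21 in Itga8+ MSCs and 1.66 in BLCs against Sca-1+ MSCs and of -1.65 and -1.23 against marrow MSCs. Tagln and Cnn1 lay above, Tagln with 67.9% of its exon bases overlapped by another gene.

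Genes of bone, tendon and adventitia met the rule in 5%, 6.67% and 0% above, near the 8.57% of all genes. Levels differed between populations of an arm and, for some genes, between libraries of a population. Of 20 osteoblast and osteocyte genes, 14 were called higher (70%, against 21.6% of all genes) and 2 lower (10%, against 14.2%), and only Sparc, a matrix protein that binds collagen, lay above, at 26976 to 184257 CPM against 3201 to 13869 CPM. The pooled count did not hold for each population: against marrow MSCs, 12 of the 20 were called higher and 2 lower in BLCs (median 2.14), but 4 higher and 8 lower in Itga8+ MSCs (median -0.81). Bglap (osteocalcin, named after its values were seen) averaged 3304 ± 3199 CPM (SD, n = 3) in BLCs and 7.13 ± 7.01 CPM in Itga8+ MSCs, against 0.717 and 6.18 CPM in Sca-1+ and marrow MSCs, and only 43.4% of its 50-base words are found in no other gene. Of 15 tendon and ligament genes, 9 were called higher (60%) and 2 lower (13.3%), and Ptx4 alone lay above, though it left the rule after the length trend was removed. Scx and Tnmd, a tendon transcription factor and a tendon membrane protein named after their values were seen, averaged 290 and 2501 CPM in Itga8+ MSCs but 16.9 and 29.0 CPM in BLCs, below the 33.8 and 91.7 CPM of Sca-1+ MSCs. Of 19 adventitial fibroblast genes, 8 were called higher (42.1%) and 4 lower (21.1%) and none met the rule. Itga8+ MSCs had a median of -3.29 against Sca-1+ MSCs but 4.05 against marrow MSCs, and BLCs -4.46 and 3.89, so that a pooled value describes neither.

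**Figure D5:**
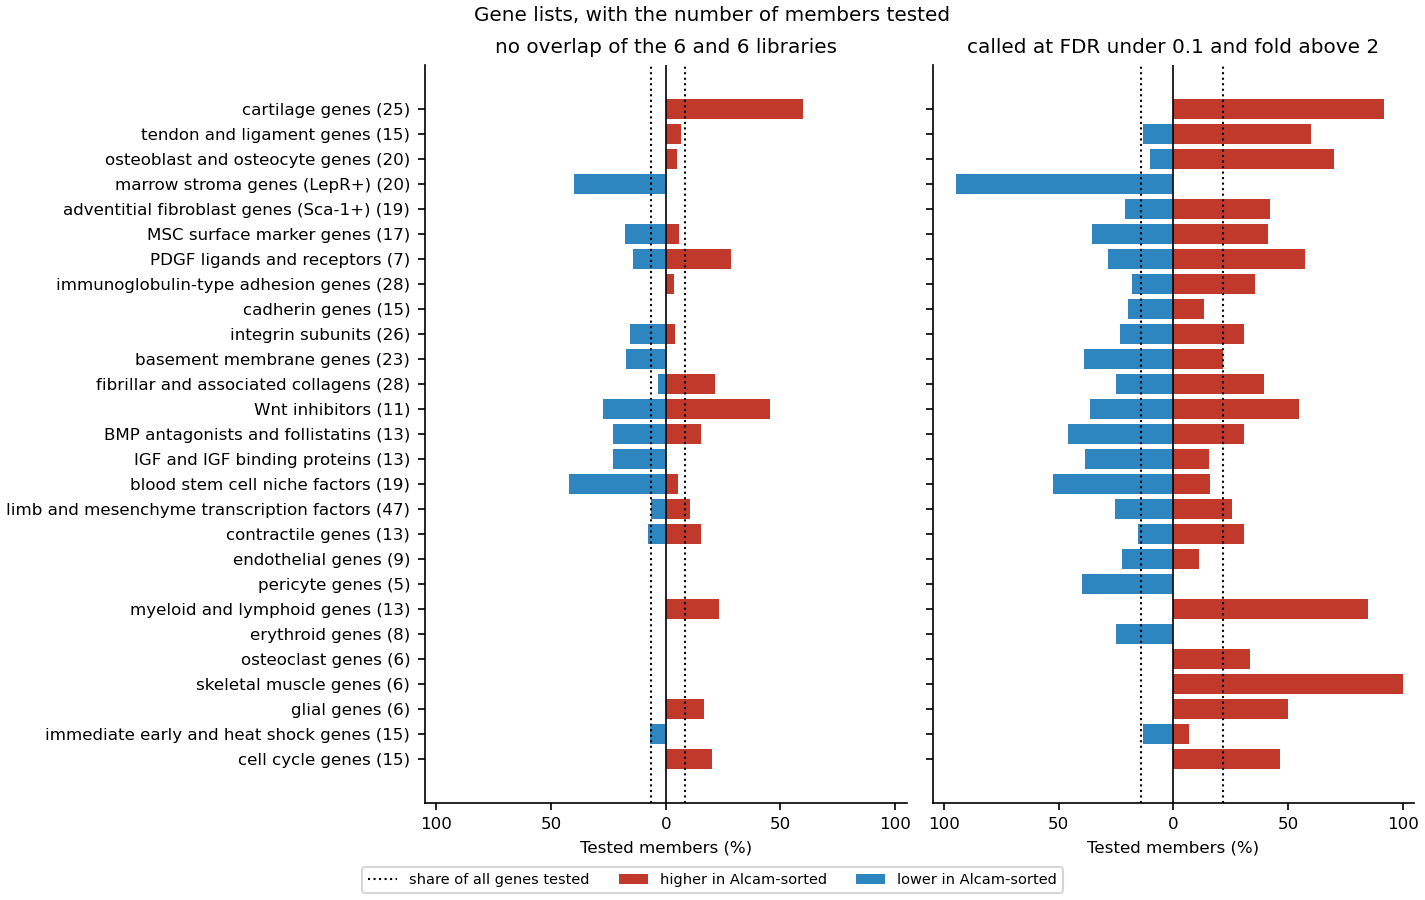
Bars give the share (%) of the tested members of each list that were higher (right of 0) or lower (left) in the Alcam-sorted arm, by the rule of no overlap (left panel) and by the fit (right panel), and dotted lines give the share of all genes tested. Cartilage genes reach 60.0% above and marrow stroma genes 40% below by the rule, against 8.57% and 6.52% of all genes.

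Calls between the populations of an arm are given for members beside those for all genes, and nothing is read from the difference, since the rule itself favours genes that are even within an arm. Of the 1599 genes above, 57 (3.56%) were called between Itga8+ MSCs and BLCs, beside 3.82% of all genes, and 252 (15.8%) between Sca-1+ and marrow MSCs, beside 20.5%. Of the 1216 below, these were 45 (3.70%) and 180 (14.8%). Ptx4, a secreted pentraxin, was among those called, with a mean of 894 ± 613 CPM in Itga8+ MSCs against 15.5 ± 4.42 CPM in BLCs (log2 5.85, FDR = 0.0012). In the other direction Fstl4 averaged 2.34 ± 0.855 CPM against 30.6 ± 8.25 CPM (log2 -3.70, FDR = 0.0022). Col13a1 averaged 24.2 ± 20.7 CPM against 117 ± 48.1 CPM (log2 -2.28, FDR = 0.087). Of the genes below, Ebf1 (log2 1.99, FDR = 0.0094), Igf1 (log2 2.02, FDR = 0.011) and Fstl1 (log2 1.74, FDR = 0.017) were higher in Itga8+ MSCs than in BLCs, and remained under every other library. These FDR values come from edgeR's fit over all genes.

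Markers of myeloid and lymphoid cells, which the gates exclude, moved with the arms. Of 13 myeloid and lymphoid genes, 11 were called higher in the Alcam-sorted arm (84.6%, against 21.6% of all genes), and S100a8, S100a9 and Elane, proteins of neutrophils and their precursors, lay above. The summed level of the list was 3137 to 21490 CPM in Itga8+ MSCs and 6678 to 9337 CPM in BLCs, against 1145 to 2846 CPM in Sca-1+ MSCs and 1146 to 1812 CPM in marrow MSCs. The share of the list above was 23.1%, against 8.57% of all genes. Elane measured 327 to 1486 CPM against 61.2 to 156 CPM. S100a8 and S100a9 met the rule by only 1.14-fold and 1.06-fold, and were highest in Itga8+ replicate 2, at 1954 and 2345 CPM. Ptprc, the gene of the CD45 used to gate blood cells out, overlapped at 3.54 to 31.6 CPM against 6.94 to 19.9 CPM. It was not called (FDR = 0.21, edgeR), with a log2 fold change of 0.73, or 1.01 without the 4 libraries low in long genes. No marker of the list was at 0 in all libraries of an arm, and the part of these cells in the genes above was not tested.

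Shares in other lists stand against 21.6% of all genes called higher and 14.2% lower. All 6 skeletal muscle genes were called higher, from a summed 1.87 to 3.91 CPM in the others to 6.42 to 43.4 CPM, and none met the rule. Ckm, named after its values were seen, measured 0.240 to 2.43 CPM against 0 to 0.519 CPM. Of 6 glial genes 3 were called higher (50%), and S100b, a calcium-binding protein that chondrocytes also make, lay above at 46.3 to 127 CPM against 5.37 to 16.1 CPM. Of 15 cell cycle genes 7 were called higher (46.7%), and Cdk1 (26 to 164 CPM against 9.56 to 20.8 CPM), Cdc20 and Pcna lay above. With Sca-1+ MSCs as the reference, Itga8+ MSCs had 11 of the 15 called higher (median 1.59), but with marrow MSCs as the reference BLCs had 1 higher and 1 lower (median 0.28). Pcna met the rule by 1.02-fold, and it and Cdc20 left the rule after the length trend was removed. Pcna lost its call there (log2 0.58), and its log2 fold change was 0.31 without the 4 libraries. Endothelial genes (1 higher, 11.1%, and 2 lower, 22.2%, of 9), pericyte genes (2 lower of 5, 40%), erythroid genes (2 lower of 8, 25%) and osteoclast genes (2 higher of 6, 33.3%) held no member. Of 15 immediate early and heat shock genes 1 was called higher (6.67%) and 2 lower (13.3%), and Nr4a1, a nuclear receptor induced by stimulation, lay below at 90.2 to 576 CPM against 1033 to 2424 CPM.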

How the data were processed

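RNA of 2000 sorted cells per library was amplified by the authors with SMART-Seq v4 and made into Nextera XT libraries. They deposited raw read counts per Ensembl gene for each of 12 libraries, not normalized, on mm10. The submitters' processing notes list FastQC 0.11.7, Trimmomatic 0.38, HISAT2 2.1.0, SAMtools 1.9 and featureCounts 1.6.3, while the methods of the study name TopHat and Bowtie2. The strand setting and the annotation release are not given in the sources used here. The GENCODE M21 annotation gave symbols, coordinates and lengths for 49326 of 49585 identifiers. Total counts were 17580677 to 31332475.

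Counts were fitted with edgeR 4.0.16 (R 4.3.3): TMM scaling, at least 0.5 CPM in at least 1 library, 4 populations, quasi-likelihood test, FDR under 0.1 and fold above 2. Levels are TMM-scaled CPM. Each ± is an SE for a log2 fold change and an SD for a mean. DESeq2 1.42.0, limma 3.58.1, other scalings, filters, designs and left-out libraries or populations were alternatives. The fits were tested on simulated data. Tables and plots used Python 3.11.15 with pandas 2.3.3 and matplotlib 3.10.9.

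The members and gene lists were chosen with earlier results of these data known, and 2 alternatives (the length trend removed, and 4 libraries left out) after these values were seen. Named genes are the sorting and marker genes Alcam, Col2a1, Cnmd, Pdgfra, Itga8, Ly6a and Itgav; the 15 genes on each side with the widest gap, log2(lowest CPM of the higher arm + 0.5) minus log2(highest of the lower arm + 0.5), and at least 5 CPM in the lowest library of the higher arm; up to 4 members of each stromal list per direction; and every member in the lists of other cells and states. Cartilage and marrow genes given by their means come from the lists, and genes said to be named after their values were seen fall outside this rule.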

Additional observations from a re-analysis of the deposited data

Results flagged for a closer look

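Within the 6 libraries of an arm, 8 of 204 sets of values of named genes (3.92%) held a library whose gap to its neighbour, as a share of the whole range on the log2(CPM + 0.5) scale, exceeded the 95% limit of Dixon's test for 6 values. That limit assumes values from a single normal population, while each arm mixes populations, so the share flagged has no chance rate beside it. In the other arm, Matn3 had a ratio of 0.8316, with 1.07 CPM in Sca-1+ replicate 2 and 24.8 CPM in the next library, and Arnt2 had 0.703, with 9.81 CPM in CD51+CD140a+ replicate 1 and 17.1 CPM in the next. Krt17 (ratio 1, 0.254 CPM in Sca-1+ replicate 2), Krt7 (ratio 0.7556, 0.221 CPM in Sca-1+ replicate 1) and Krt90 (ratio 1, 0.273 CPM in CD51+CD140a+ replicate 1) each had 1 library above others at or near 0. In the Alcam-sorted arm, Scara5 had 0.6394, with 0.623 CPM in Itga8+ replicate 2 and 8.03 CPM in the next. Dkk3 had 0.6819, with 82.6 CPM in Itga8+ replicate 3 and 57.1 CPM in the next, and Msx2 had 0.6651, with 25.7 CPM in Itga8-Alcam+ replicate 3 and 7.32 CPM in the next.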

How the results depend on the processing

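The counts of 4035 genes called higher and 2656 lower became 2606 higher without the CD51+CD140a+ population and 2399 higher without the 4 libraries low in long genes, and ranged from 3278 to 4179 higher and 2303 to 3315 lower when each library was left out in turn. Under every other setting both stayed within 1.5 times. With library totals alone the median of all genes moved from 0.16 to 0.0026 on the log2 scale, the calls were 3465 higher and 3302 lower, and 1096 genes lay above and 1508 below. The 1599 genes above and 1216 below numbered 1597 to 1932 and 1268 to 1686 with a library left out. They became 2867 and 2305 without Itga8+ MSCs, 3264 and 3195 without Sca-1+ MSCs and 2451 and 2722 without CD51+CD140a+ MSCs, since fewer libraries must be separated, and 292 and 173 with the arms over 2-fold apart. DESeq2 called 597 genes higher and 606 lower between Itga8+ MSCs and BLCs, where edgeR called 310 and 402; the cause was not tested.

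The cartilage median of 3.90 was 3.79 to 4.43 with a library left out, 4.48 without Itga8+ MSCs, 6.07 without Sca-1+ MSCs and 2.89 without CD51+CD140a+ MSCs. The marrow stroma median of -3.47 was -3.56 to -3.39 with a library left out, -5.11 with 2 groups only, -3.01 with the length trend removed, and -3.79, -2.99, -6.10 and -0.85 when Itga8+ MSCs, the BLCs, the Sca-1+ sort or the CD51+CD140a+ sort were left out, in that order. Some medians reversed. That of adventitial genes (0.36) was -2.82 with 2 groups only, -0.23 to 0.56 with a library left out (lowest without Itga8+ replicate 2), -4.11 without CD51+CD140a+ MSCs and -0.40 without the 4 libraries. That of cadherins (0.29) was -0.32 with 2 groups only, -1.14 without BLCs and -0.89 without Sca-1+ MSCs. That of contractile genes (0.42) was -0.37 with 2 groups only and -1.19 without Sca-1+ MSCs, and that of BMP antagonists (-0.55) was 0.50 without Sca-1+ MSCs. Single genes reversed with the populations used: Itga8 was -2.79 without Itga8+ MSCs, and without Sca-1+ MSCs Itga8 was -2.26, Ly6a 4.05 and Cd34 2.18. Without CD51+CD140a+ MSCs Col1a1 was -0.025 and Pi16 -4.11, and Pi16 was -2.83 with 2 groups only. Of all pairs of a named gene and an alternative, 3015 kept direction and call, 39 lost the call, 13 gained it and 7 reversed.

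With the replicate number as a replicate block, 3626 genes were called higher (3592 of them among the 4035) and 2483 lower (2431 among the 2656). Deviations of same-numbered libraries correlated at -0.58 to 0.20, above 0.1 in 5 of 18 pairs. Libraries of different number could deviate together: Itga8+ replicate 2 with BLC replicate 3 at 0.59, and Itga8+ replicate 3 with BLC replicate 2 at 0.62. These pairs are also alike in their long genes, which can hide a pairing. This check therefore cannot tell whether the numbers pair the samples. With 3 libraries a population and 3 counts at 0.0820 to 0.180 CPM, levels near that floor carry little information.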

Other observations

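Keratin and complement genes were gathered into lists after their values had been seen, so their counts are descriptions only. Of 20 keratin genes tested, 12 were called higher in the Alcam-sorted arm (60.0%, against 21.6% of all genes) and none lower, and Krt16, Krt17, Krt5, Krt7 and Krt90 had all 6 libraries above. Krt17 measured 5.95 to 16.4 CPM against 0 to 0.254 CPM. Krt5, a keratin of basal epithelium, had 0.240 to 0.544 CPM and no count in the others, at least 3.33-fold higher than a floor of 3 counts per library, and it was too low to enter the fit without the 4 libraries low in long genes. Their summed level was 47.4 to 73.6 CPM in Itga8+ MSCs and 67.8 to 108 CPM in BLCs, against 11.2 to 14.3 CPM for the Sca-1+ sort and 2.96 to 5.30 CPM for the CD51+CD140a+ sort. Krt90 left the rule after the length trend was removed.

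Of 28 complement genes, 14 were called lower (50%, against 14.2% of all genes) and 8 higher (28.6%, against 21.6%), namely C1qa, C1qb, C1qc, C5ar1, Cfd, Cfp, Masp1 and Cd59a, and 9 had all 6 Alcam-sorted libraries below (32.1%, against 6.52%). C3, the central component, measured 13.8 to 132 CPM against 369 to 1358 CPM, and C4b 15.8 to 387 CPM against 1386 to 2631 CPM. Clu, clusterin, which blocks the terminal complex, measured 294 to 1233 CPM against 1721 to 3787 CPM. C4b has near copies in the genome, so its level is less certain.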
